A study of Mus musculus with 4 samples.

Results

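Sialyltransferases and the polypeptide GalNAc transferases make up the gene group described here. They were taken from the deposited table of transcript levels by symbol, as every gene named St3gal, St6gal, St6galnac or St8sia with its number, every numbered Galnt gene, and Galntl5 and Galntl6. This gave 39 symbols under 40 entries, of 55487 genes listed, because St6galnac2 stood under 2 identifiers. RNA was measured in nuclei from the brains of adult wild-type mice, without the olfactory bulb, sorted by fluorescence into excitatory neurons (2 libraries) and inhibitory neurons (2 libraries). All 4 libraries carry the same batch label, and the markers of the sort, the number of animals behind a library and any pooling were not stated in the sources consulted. Levels are in TPM, a unit that divides by transcript length and scales every library to the same total. It can be compared between genes, but sequencing depth cannot be read from it and is unknown here.

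Sialyltransferases move sialic acid from its activated form, CMP-sialic acid, onto the outer ends of glycans in the Golgi apparatus. The St3gal and St6gal enzymes cap galactose, the St6galnac enzymes cap N-acetylgalactosamine (GalNAc), and the St8sia enzymes add sialic acid to sialic acid, up to the long polysialic acid chains of the neural cell adhesion molecule. Brain is rich in gangliosides, the sialylated glycolipids that several of these enzymes build. The Galnt enzymes start mucin-type O-glycans by placing the first GalNAc on serine or threonine of a protein, and members of this large family differ in the peptides they prefer.

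The sorted populations carried most of their labels' markers, with 7 of 8 excitatory identity genes higher in excitatory nuclei and all 7 tested inhibitory identity genes higher in inhibitory nuclei. Slc17a7, the vesicular glutamate transporter of forebrain neurons, stood at 365 and 367 TPM in excitatory libraries, against 60.2 and 52.2 TPM in inhibitory ones. The remaining excitatory identity gene, Slc17a6, which loads glutamate into vesicles in many subcortical neurons, was called the other way. It stood at 22.4 and 20.3 TPM in excitatory libraries, against 87.97 and 78.4 TPM in inhibitory ones (log2 fold change -1.91 ± 0.13, limma adjusted p = 0.00176). Gad1, which makes GABA, stood at 45.0 and 38.1 TPM in excitatory libraries, against 226 and 207 TPM in inhibitory ones. Markers of brain regions also differed between the populations. All 8 striatal markers were called higher in inhibitory nuclei (summed level 311 and 326 TPM in excitatory libraries, against 1184 and 1230 TPM in inhibitory ones), as were 5 of 6 thalamic, 5 of 6 Purkinje and 5 of 7 cerebellar granule markers. Slc17a6 is counted again among the thalamic ones. The makeup of the populations by region was not measured. Among markers of non-neuronal cells tested with limma, 0 of 8 astrocyte, 0 of 8 oligodendrocyte, 0 of 5 oligodendrocyte precursor, 0 of 7 microglia and 0 of 1 endothelial genes were called, and an unadjusted p under 0.05 was seen for 3 toward excitatory and 2 toward inhibitory. Summed oligodendrocyte markers stood at 466 and 384 TPM in excitatory libraries, against 413 and 293 TPM in inhibitory ones, and astrocyte markers at 91.3 and 79.8 TPM, against 72.0 and 55.8 TPM. All 8 astrocyte and all 8 oligodendrocyte genes had positive log2 fold changes (medians 0.35 and 0.25, against -0.07 over all genes tested). Of 7 microglia genes, 3 were positive and 4 negative, with sums of 66.7 and 61.1 TPM, against 88.5 and 70.9 TPM. The part of these differences in region and cell markers in the results below was not tested. In bulk nuclei, fewer cells expressing a gene and less RNA per cell cannot be told apart.

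Together the group took nearly the same share of the transcriptome in both populations, at 1100.1 and 1128 summed TPM in excitatory libraries, against 1128 and 1114 TPM in inhibitory ones. Its makeup differed. A filter of 1 TPM, to be met by 2 or more libraries, left 36 entries, of which 7 were higher in excitatory nuclei, 8 in inhibitory nuclei and 21 in neither (limma on log2(TPM + 1), Benjamini-Hochberg adjusted p under 0.05 over 26055 genes). Of all genes tested, 5.43% were called toward excitatory and 6.62% toward inhibitory nuclei (12.0% in either direction). The members lie high in the range of levels, with a median of 26.6 TPM against 12.2 TPM over all genes tested. Among genes averaging at least 10 TPM, the called shares were 6.93% toward excitatory and 7.21% toward inhibitory, and 6 and 7 of the 26 members at that level were called. The median log2 fold change, excitatory over inhibitory, was -0.11 over the members and -0.07 over all genes tested.

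The 7 include Galnt3, which passed the filter only through the excitatory libraries, so it could not have entered the test without standing higher there. Both directions held sialyltransferases and GalNAc transferases. Among sialyltransferases, 4 of 19 tested entries were higher in excitatory nuclei (St6gal2, St6galnac3, St6galnac5, St3gal5) and 4 in inhibitory nuclei (St8sia4, St3gal4, St3gal6, St8sia1). Among GalNAc transferases, 3 of 17 were higher in excitatory nuclei (Galnt3, Galnt9, Galnt18) and 4 in inhibitory nuclei (Galntl6, Galnt10, Galnt1, Galnt13). The excitatory libraries stood above both inhibitory ones for 13 members (23.0% of all genes tested), the inhibitory libraries above both excitatory ones for 16 (33.3% of all genes tested), and 7 members overlapped. In all, 29 of 36 members did not overlap, against 56.2% of all genes tested. These counts include Galnt3 and St8sia6, which each passed the filter through 1 group only and so could not overlap. Fits without 1 library (either excitatory or either inhibitory replicate) leave a group of a single library. In each of these 4 fits limma called 0 members and 0 genes in all, and the 15 called members kept their sign. Between 8 and 10 members in each direction then had an unadjusted p under 0.05, against 11 toward excitatory and 10 toward inhibitory with every library in. Nothing in the labels ties replicates to separate animals, so a p-value here speaks only of the spread among these 4 samples. With 2 libraries a group, the smallest two-sided p of an exact permutation test is 0.333.

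**Figure D1:**
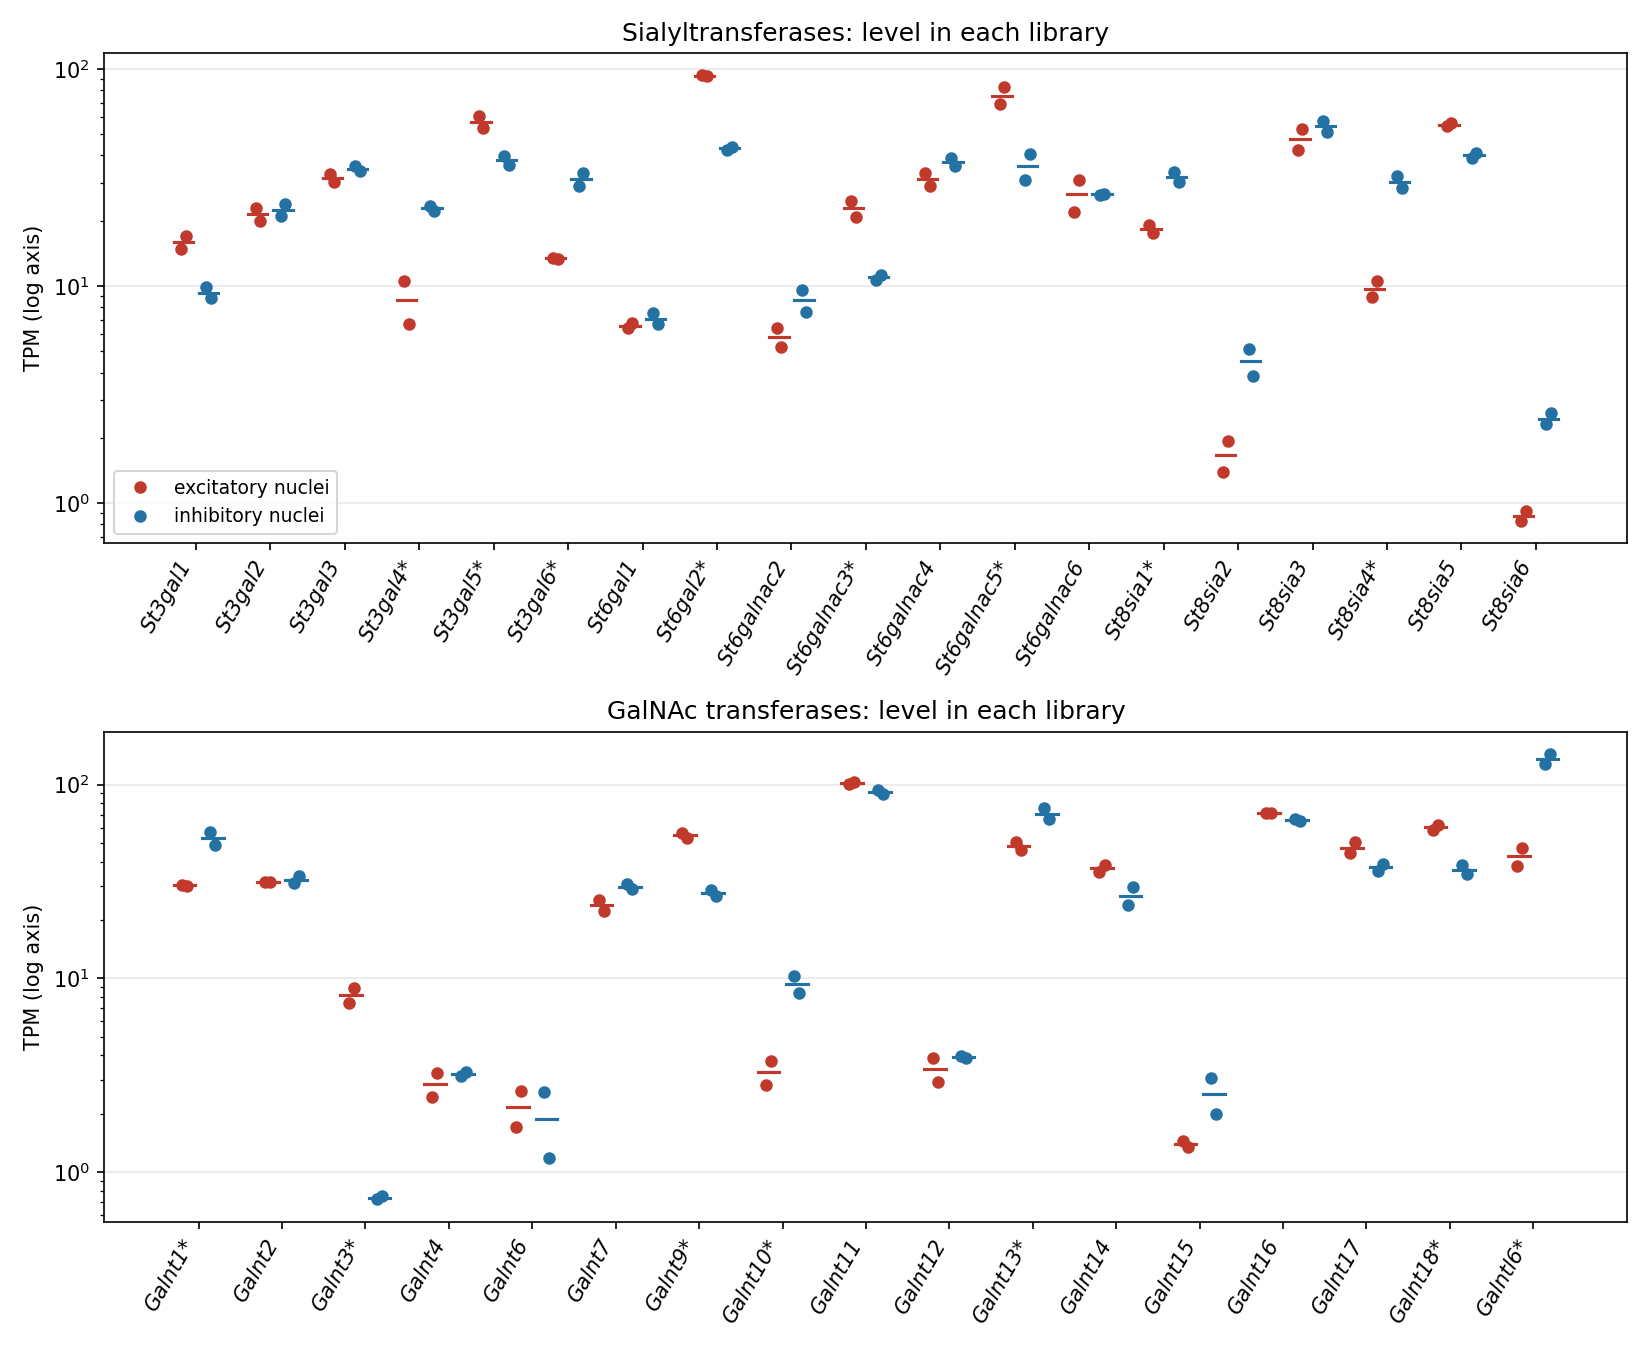
Level of each tested member in TPM on a log axis, with sialyltransferases in the upper panel and GalNAc transferases in the lower one. Points are the 2 libraries of each population, short lines are their means, and an asterisk marks a called gene. The widest gap between populations is that of Galnt3, at 7.43 and 8.90 TPM in excitatory libraries, against 0.723 and 0.754 TPM in inhibitory ones. Galnt3 passed the filter of 1 TPM only through the excitatory libraries, and the size of its gap is uncertain.

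**Figure D2:**
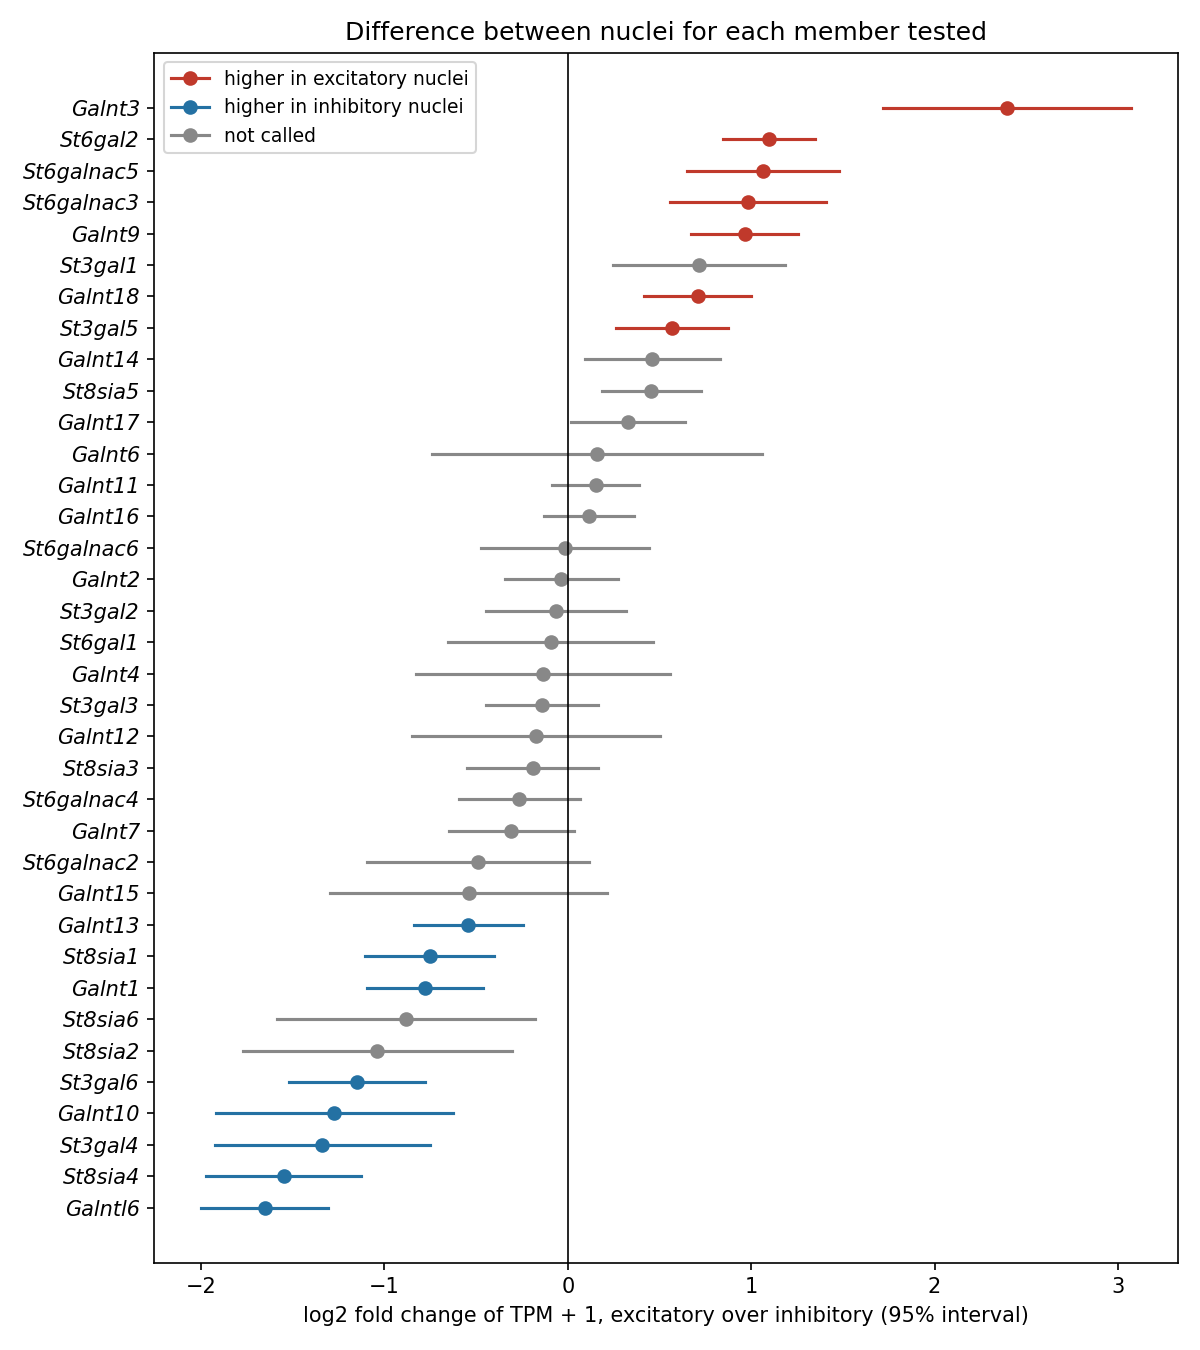
Log2 fold change of TPM + 1, excitatory over inhibitory, for each of the 36 tested members, ordered by size, with 95% intervals from limma. Called members run from Galnt3 at 2.39, whose direction was fixed by the filter, down to Galntl6 at -1.65, and 21 members in grey were not called.

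From the called members whose RefSeq start lies within 50 bases of the GENCODE start, those with the largest difference in each direction were taken. Their sequence just upstream is shown so that a reader can see the regions from which they are read. Among them, St6galnac3 and Galnt10 lost their calls without the filter on low values. RefSeq windows (build GRCm38.p6, the assembly of mm10) run from 250 bases before to 50 bases after a start. They were matched by symbol for 27 of 39 member symbols and for 12 of the 15 called members. Each is printed from 5′ to 3′ on the strand of its gene, with matches to the GC box GGGCGG, on either strand, in capitals. St6gal2 (chr17:55445132-55445431, plus strand) and St6galnac3 (chr3:153725084-153725383, minus strand) were higher in excitatory nuclei.
St6gal2: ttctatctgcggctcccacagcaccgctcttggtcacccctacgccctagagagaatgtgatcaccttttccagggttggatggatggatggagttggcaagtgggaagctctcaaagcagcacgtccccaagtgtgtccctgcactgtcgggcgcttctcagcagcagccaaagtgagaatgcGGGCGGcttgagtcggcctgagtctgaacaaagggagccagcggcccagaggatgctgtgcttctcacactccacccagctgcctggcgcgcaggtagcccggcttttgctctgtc
St6galnac3: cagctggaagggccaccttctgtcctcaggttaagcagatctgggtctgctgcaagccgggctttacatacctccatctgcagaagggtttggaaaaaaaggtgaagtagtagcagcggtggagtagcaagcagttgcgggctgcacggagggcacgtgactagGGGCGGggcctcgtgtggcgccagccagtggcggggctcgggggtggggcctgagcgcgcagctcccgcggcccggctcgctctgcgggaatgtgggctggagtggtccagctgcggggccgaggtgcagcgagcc
St8sia4 (chr1:95667545-95667844, minus strand) and Galnt10 (chr11:57645192-57645491, plus strand) were higher in inhibitory nuclei.
St8sia4: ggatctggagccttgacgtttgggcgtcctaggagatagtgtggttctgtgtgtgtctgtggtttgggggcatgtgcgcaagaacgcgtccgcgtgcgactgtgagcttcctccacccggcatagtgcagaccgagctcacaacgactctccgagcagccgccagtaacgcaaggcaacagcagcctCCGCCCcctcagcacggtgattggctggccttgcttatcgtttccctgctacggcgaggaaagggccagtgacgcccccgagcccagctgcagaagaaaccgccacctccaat
Galnt10: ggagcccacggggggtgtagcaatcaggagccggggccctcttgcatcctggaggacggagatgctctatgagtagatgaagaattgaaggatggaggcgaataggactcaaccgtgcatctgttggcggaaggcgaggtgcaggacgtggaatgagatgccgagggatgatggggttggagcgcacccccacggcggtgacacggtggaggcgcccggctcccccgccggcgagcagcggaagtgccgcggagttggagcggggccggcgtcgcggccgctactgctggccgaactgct
St6gal2 has the forward GC box 66 bases upstream of its start and St8sia4 the reverse form 63 bases upstream, while the letters are not in the Galnt10 window.

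Most members with a window share a GC-rich start whichever way they moved. Median GC content was 69.3% in the 6 windows of genes higher in excitatory nuclei and 64.7% in the 8 windows of genes higher in inhibitory nuclei, with 64.3% in the 19 windows of uncalled members and 52.7% in all 32851 windows. GGGCGG, searched on both strands, was found in 5 of 5 genes higher in excitatory, 5 of 7 higher in inhibitory and 9 of 13 not called, against 38.2% of all genes with a window. The zinc finger factor EGR1, with which the study is concerned, binds GCGTGGGCG, whose last letters overlap the GC box. These letters were found in 0 of the 25 tested members with a window, against 0.707% of all genes, and the core GTGGGCG in 0, against 8.99%. TAATTA, the core of many homeodomain sites, was found for St3gal6 among genes higher in inhibitory nuclei and for St6gal1 among uncalled ones (6.12% of all genes). The St3gal6 matches lie in 1 of its 2 windows, whose start is 10 bases from the GENCODE start. The St6gal1 match lies in 1 of its 3 windows, whose start is 65730 bases from the GENCODE start. TATAAA was found for Galntl6 alone among members (15.7% of all genes), in the reverse orientation. It lies 139 bases upstream of a RefSeq start that is 1013 bases from the GENCODE start. A match of letters in this window is a description and does not show binding.

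St3gal enzymes, which add sialic acid to galactose, were called in both directions. St3gal5, the GM3 synthase that makes the first ganglioside of the main series, was higher in excitatory nuclei. It stood at 60.6 and 53.4 TPM in excitatory libraries, against 39.7 and 36.3 TPM in inhibitory ones, a log2 fold change of 0.57 ± 0.13 (SE, limma adjusted p = 0.0380). Both excitatory values lie above both inhibitory ones. St3gal4 and St3gal6, which cap galactose on the N-acetyllactosamine arms of glycoproteins, were both higher in inhibitory nuclei. St3gal4 stood at 10.5 and 6.67 TPM in excitatory libraries, against 23.5 and 22.1 TPM in inhibitory ones (log2 fold change -1.34 ± 0.24, limma adjusted p = 0.0217). St3gal6 stood at 13.5 and 13.3 TPM in excitatory libraries, against 28.98 and 33.1 TPM in inhibitory ones (log2 fold change -1.15 ± 0.15, limma adjusted p = 0.00855). On TPM this is 2.65-fold for St3gal4 and 2.31-fold for St3gal6, and in both the groups do not overlap.

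The remaining St3gal genes were not called. St3gal1, an enzyme of O-glycans, stood at 14.9 and 17.1 TPM in excitatory libraries, against 9.86 and 8.81 TPM in inhibitory ones (limma adjusted p = 0.0652). It was called with median-ratio scaling (adjusted p = 0.0445) or quantile normalization (adjusted p = 0.0450). St3gal2, which works on gangliosides and O-glycans, stood at 22.8 and 20.04 TPM in excitatory libraries, against 21.04 and 23.9 TPM in inhibitory ones. St3gal3, whose human counterpart is linked to intellectual disability, stood at 32.7 and 30.2 TPM, against 35.7 and 33.8 TPM. Their log2 fold changes had 95% intervals of -0.45 to 0.32 for St3gal2 and -0.45 to 0.17 for St3gal3, which leaves room for differences of that size. Summed over the family, the St3gal genes came to 155 and 141 TPM in excitatory libraries, against 159 and 158 TPM in inhibitory ones.

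Overlapping transcripts touch both St3gal genes that were higher in inhibitory nuclei. The exons of St3gal4 share 412 bases, 14.1% of their length, with 4930581F22Rik on the opposite strand. That gene stood at 10.3 and 11.3 TPM in excitatory libraries, against 23.8 and 24.5 TPM in inhibitory ones, in the same order as St3gal4. St3gal6 shares 1603 exon bases, 26.0%, with Dcbld2 on the opposite strand, which stood at 33.6 and 35.7 TPM in excitatory libraries, against 32.1 and 33.5 TPM in inhibitory ones. The libraries were made with a strand-keeping kit, per the labels' protocols, but the sources do not say whether counting used the strand, and the part of overlap in these values was not tested.

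The St6gal pair, which places sialic acid on the galactose of N-glycans by another linkage, was dominated by the brain-enriched St6gal2. St6gal2 (chromosome 17, 55445382 to 55514581, mm10) stood at 93.6 and 93.1 TPM in excitatory libraries, against 42.3 and 43.9 TPM in inhibitory ones. This is 2.17-fold higher in excitatory nuclei, with a log2 fold change of 1.10 ± 0.10 (limma adjusted p = 0.00356), and the replicates of each group differ by little beside that gap. St6gal1, the enzyme of liver and plasma cells, stood at 6.39 and 6.75 TPM in excitatory libraries, against 7.50 and 6.66 TPM in inhibitory ones, with a 95% interval of -0.65 to 0.46 on the log2 scale. Within each library St6gal2 exceeded St6gal1 by 14.7 and 13.8 times in excitatory nuclei, against 5.64 and 6.59 times in inhibitory ones.

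Of the St6galnac enzymes, the members higher in excitatory nuclei lie on the same chromosome with no other member between them. Genes outside the group were not looked for in the gap. St6galnac5, which makes alpha-series gangliosides in brain, stood at 68.8 and 82.2 TPM in excitatory libraries, against 30.9 and 40.6 TPM in inhibitory ones (log2 fold change 1.07 ± 0.17, limma adjusted p = 0.0148). St6galnac3, which extends sialylated O-glycans and gangliosides, stood at 24.8 and 20.8 TPM, against 10.7 and 11.3 TPM (0.98 ± 0.17, limma adjusted p = 0.0209). Both are a little over 2-fold higher in excitatory nuclei (2.11 and 2.07 on TPM), and in both the groups stand apart. St6galnac5 (152817081 to 152982246, mm10) and St6galnac3 (153198266 to 153725174) lie on the minus strand of chromosome 3 with 216019 bases between them.

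St6galnac4 and St6galnac6 form a closer pair, on the plus strand of chromosome 2 with 10 bases between them, and neither was called. St6galnac4, an enzyme of disialylated O-glycans, stood at 33.1 and 28.9 TPM in excitatory libraries, against 39.04 and 35.7 TPM in inhibitory ones (limma adjusted p = 0.269). St6galnac6, another ganglioside enzyme, stood at 22.03 and 30.97 TPM in excitatory libraries, against 26.3 and 26.5 TPM in inhibitory ones, so its excitatory replicates bracket both inhibitory values. The O-glycan enzyme St6galnac2 stood at 6.44 and 5.24 TPM, against 9.63 and 7.64 TPM, under its main identifier (limma adjusted p = 0.263). Its other entry, which shares 383 exon bases with the first, reached at most 0.926 TPM and was not tested. St6galnac1, also an O-glycan enzyme, was listed at 0 in 3 libraries and at 0.313 TPM in inhibitory replicate 2. The family sum was 155 and 169 TPM in excitatory libraries, against 117 and 123 TPM in inhibitory ones.

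Of the 6 St8sia genes, limma called 2 toward inhibitory nuclei (6.62% of all genes tested) and 0 toward excitatory nuclei (5.43%). An unadjusted p under 0.05 was seen for 4 toward inhibitory and 1 toward excitatory, and the median log2 fold change was -0.82, against -0.07 over all genes tested. The 4 include St8sia6, which passed the filter on low values only through the inhibitory libraries. Its direction was therefore fixed by the filter, and its value also enters the median. St8sia4, the main polysialyltransferase of adult brain, showed the largest difference among sialyltransferases. St8sia4 (chromosome 1, 95587682 to 95667571, mm10) stood at 8.88 and 10.5 TPM in excitatory libraries, against 32.1 and 28.4 TPM in inhibitory ones. It is 3.12-fold higher in inhibitory nuclei, a log2 fold change of -1.55 ± 0.17 (limma adjusted p = 0.00541). St8sia2, the polysialyltransferase most active in the developing brain, stood at 1.40 and 1.94 TPM in excitatory libraries, against 5.14 and 3.86 TPM in inhibitory ones. Its groups do not overlap, but it was not called (log2 fold change -1.04 ± 0.30, limma adjusted p = 0.0801). Together these polysialyltransferases came to 10.3 and 12.4 TPM in excitatory libraries, against 37.2 and 32.2 TPM in inhibitory ones. Ncam1, the main carrier of polysialic acid, stood at 184 and 194 TPM, against 239.8 and 217 TPM (limma adjusted p = 0.144).

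St8sia1, the GD3 synthase that turns GM3 into GD3 and opens the b-series of gangliosides, was the other St8sia gene higher in inhibitory nuclei. It stood at 19.2 and 17.6 TPM in excitatory libraries, against 33.4 and 30.1 TPM in inhibitory ones (log2 fold change -0.75 ± 0.14, limma adjusted p = 0.0260). St3gal5, which makes its substrate, was higher in excitatory nuclei, so the ratio of St3gal5 to St8sia1 was 3.16 and 3.03 in excitatory libraries, against 1.19 and 1.21 in inhibitory ones. The pair was chosen with its values known, and the ratio has no test of its own.

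St8sia5, which adds sialic acid to further gangliosides, went the other way but fell just short of the threshold. It stood at 54.5 and 56.3 TPM in excitatory libraries, against 39.02 and 41.2 TPM in inhibitory ones (log2 fold change 0.46 ± 0.11, limma adjusted p = 0.0508). It was called when the filter was raised to 5 TPM (adjusted p = 0.0427), median-ratio scaling (0.0255), quantile normalization (0.0374) or a replicate block (0.0314). St8sia3, which is strongly expressed in brain, stood at 42.5 and 53.1 TPM in excitatory libraries, against 57.5 and 51.4 TPM in inhibitory ones, with overlapping groups. St8sia6, an enzyme of O-glycans and the least abundant, stood at 0.831 and 0.916 TPM, against 2.305 and 2.60 TPM (limma adjusted p = 0.109), and passed the filter on low values only through the inhibitory libraries. It was called with no trend in the variance prior (adjusted p = 0.0410).

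**Figure D3:**
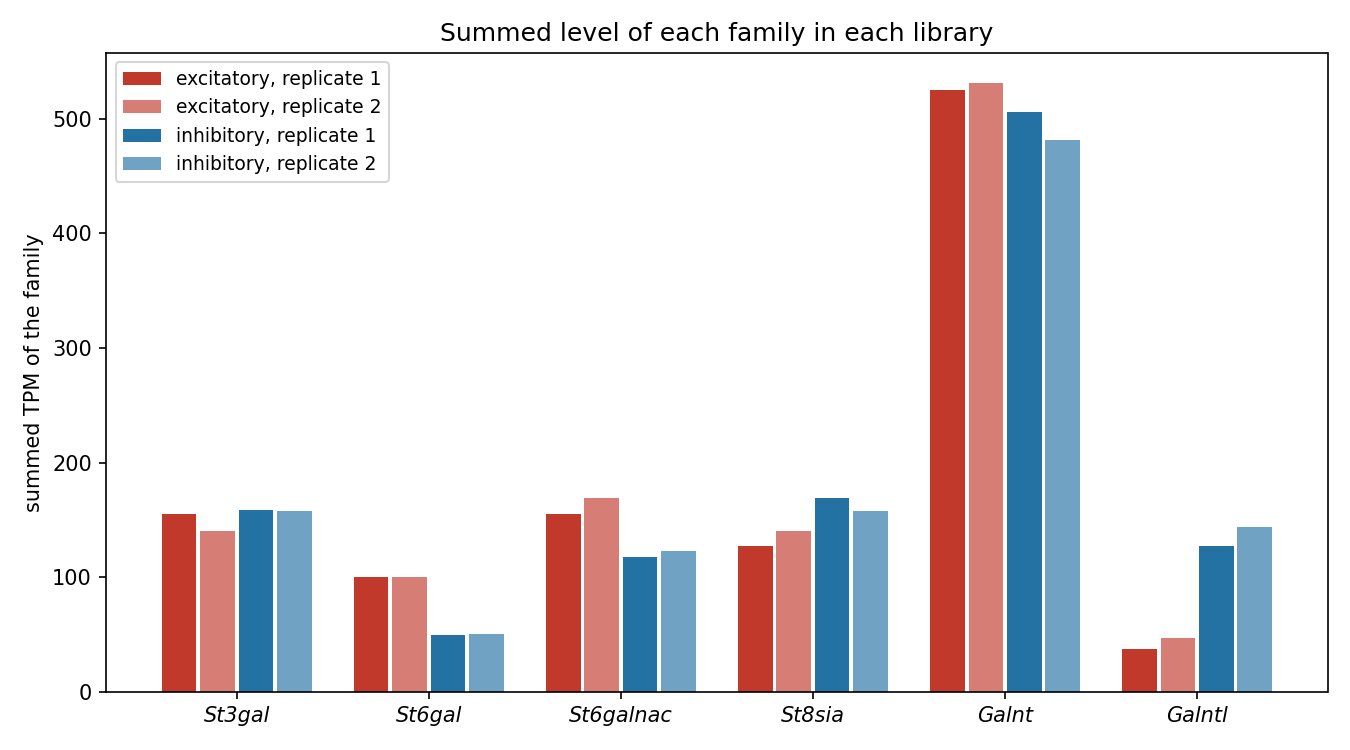
Summed TPM of each family in each library, with bars from 0 and 1 bar per library. The St6gal, St6galnac and Galnt sums of both excitatory libraries lie above those of the inhibitory ones, and the St3gal, St8sia and Galntl sums lie below them, with Galntl at 37.8 and 47.4 TPM in excitatory libraries, against 127 and 144 TPM in inhibitory ones.

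GalNAc transferases were summed to 563 and 578 TPM in excitatory libraries, against 633 and 625 TPM in inhibitory ones. Galntl6 accounted for the order of these sums, since the numbered Galnt genes alone came to 525 and 531 TPM in excitatory libraries, against 505 and 481 TPM in inhibitory ones. Galntl6, a family member known mainly by its sequence, was the most abundant member of the whole group in inhibitory nuclei. It stood at 37.8 and 47.3 TPM in excitatory libraries, against 127 and 144 TPM in inhibitory ones, 3.18-fold higher in inhibitory nuclei (log2 fold change -1.65 ± 0.14, limma adjusted p = 0.00312). The gene spans 1138589 bases of chromosome 8 (57774052 to 58912640, minus strand, mm10), the longest span among members. Its exons share 330 bases, 4.5%, with BC030500 on the opposite strand, which reached at most 20.5 TPM.

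Galnt10 and Galnt1 were also higher in inhibitory nuclei. Galnt10, which prefers peptides that already carry a GalNAc, stood at 2.83 and 3.76 TPM in excitatory libraries, against 10.3 and 8.38 TPM in inhibitory ones (log2 fold change -1.27 ± 0.27, limma adjusted p = 0.0329). Galnt1, a broadly expressed starter of O-glycans, stood at 30.4 and 29.97 TPM in excitatory libraries, against 56.8 and 48.7 TPM in inhibitory ones (-0.78 ± 0.13, limma adjusted p = 0.0169). For both, every inhibitory value lies above every excitatory one. Galnt13, a neuron-enriched enzyme, stood at 50.5 and 46.1 TPM, against 75.5 and 66.2 TPM (-0.54 ± 0.12, limma adjusted p = 0.0402). Its call was lost without the filter, with either other scaling (median-ratio or quantile) or when the variance prior had no trend (adjusted p between 0.0551 and 0.127).

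Galnt3 (chromosome 2, 66082766 to 66124994, mm10), which protects the hormone FGF23 from cleavage in bone, stood at 7.43 and 8.90 TPM in excitatory libraries, against 0.723 and 0.754 TPM in inhibitory ones. Its inhibitory values lie below the filter of 1 TPM, so the size of its difference is uncertain, with a log2 fold change of 2.39 ± 0.28 at a pseudocount of 1 and 3.30 at a pseudocount of 0.1. With no filter, where its entry did not depend on the excitatory libraries, limma gave an adjusted p of 0.0317. Galnt9, a brain-enriched enzyme, stood at 56.6 and 53.1 TPM in excitatory libraries, against 28.5 and 26.7 TPM in inhibitory ones (0.97 ± 0.12, limma adjusted p = 0.00700). Its close relative Galnt18 stood at 58.5 and 61.6 TPM, against 38.5 and 34.4 TPM (0.71 ± 0.12, limma adjusted p = 0.0178). Galnt17, of the same branch and once named after the Williams-Beuren syndrome region in humans, stood at 44.1 and 50.4 TPM, against 35.99 and 38.7 TPM, with no overlap but no call (limma adjusted p = 0.159).

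Several abundant Galnt genes stood close in both populations. Galnt11, which glycosylates receptors of the LDL receptor family, was the most abundant member in excitatory nuclei, at 101 and 103 TPM in excitatory libraries, against 93.9 and 89.3 TPM in inhibitory ones. Galnt16 stood at 71.6 and 71.2 TPM in excitatory libraries, against 66.6 and 65.1 TPM in inhibitory ones. In neither did the difference pass the threshold (95% intervals of -0.08 to 0.39 and -0.13 to 0.36 on the log2 scale), although the excitatory values lie above the inhibitory ones. Galnt2, another broad starter of O-glycans, stood at 31.4 and 31.5 TPM, against 30.9 and 33.8 TPM, with a 95% interval of -0.35 to 0.27. Its exons are shared to 90.0% with the same-strand entry Gm20388, which was listed at 0 in every library.

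Galnt7 and Galnt14 went in opposite directions without a call. Galnt7, which like Galnt10 follows on from an earlier GalNAc, stood at 25.3 and 22.4 TPM in excitatory libraries, against 30.5 and 28.9 TPM in inhibitory ones (limma adjusted p = 0.217). It lies 121019 bases from Galntl6 on the minus strand of chromosome 8, with no other member between them. Galnt14 stood at 35.4 and 38.7 TPM in excitatory libraries, against 24.01 and 29.5 TPM in inhibitory ones (limma adjusted p = 0.109). Galnt4, Galnt6, Galnt12 and Galnt15 lay between 1.18 and 3.996 TPM in all libraries, and none was called. Galnt4 shares 420 exon bases with Poc1b on the same strand, so its value is uncertain. Galnt5 (0.328 to 0.418 TPM) and the sperm-associated Galntl5 (at most 0.126 TPM) were below the filter in every library.

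Of the 15 called members, 6 stayed called under all 7 alternatives that kept every library. These were St6gal2 and Galnt9 toward excitatory nuclei, St3gal6, St8sia4 and Galntl6 toward inhibitory nuclei, and Galnt3, whose direction was fixed by the filter wherever one was used. Without the filter on low values, St3gal4, St3gal5, St6galnac3, St6galnac5, St8sia1, Galnt10 and Galnt13 lost their calls (adjusted p between 0.0514 and 0.0827), and with no trend in the variance prior St3gal5, St6galnac5, St8sia1, Galnt1, Galnt13 and Galnt18 did (adjusted p between 0.0543 and 0.127).

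Genes of sialic acid metabolism outside the group were called toward excitatory nuclei in 3 cases. Of 13 tested genes of sialic acid supply and removal (15 listed), limma called 3 higher in excitatory nuclei, against 5.43% of all genes tested. It called 0 higher in inhibitory nuclei, against 6.62% of all genes tested. At an unadjusted p under 0.05 the counts were also 3 and 0. The median log2 fold change of the 13 was -0.01, against -0.07 over all genes tested. Siae, which removes acetyl groups from sialic acid, stood at 33.9 and 36.7 TPM in excitatory libraries, against 17.4 and 16.9 TPM in inhibitory ones (log2 fold change 1.00 ± 0.14, limma adjusted p = 0.00932). Slc17a5, the lysosomal exporter of free sialic acid, stood at 63.7 and 56.8 TPM, against 33.6 and 31.1 TPM (0.87 ± 0.12, limma adjusted p = 0.0103). Neu2, a cytosolic sialidase, stood at 9.05 and 8.99 TPM, against 2.31 and 4.04 TPM (1.30 ± 0.30, limma adjusted p = 0.0430). The alternatives that kept every library were read gene by gene for members only. Calls of genes outside the group were not checked under them. The enzymes that make and activate sialic acid (Gne, Nans, Nanp, Cmas) and the Golgi transporter Slc35a1 were not called.

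Enzymes that build the acceptors were read against the 12.0% of all genes tested that were called in either direction. Of 10 genes of the ganglioside backbone and its breakdown, limma called 0 (unadjusted p under 0.05 for 2 toward excitatory and 1 toward inhibitory), with a median log2 fold change of -0.16. Of 5 tested genes that extend O-glycans, 1 was called. This was Gcnt4, which branches the core of O-glycans, at 9.88 and 9.78 TPM in excitatory libraries, against 1.59 and 1.34 TPM in inhibitory ones (log2 fold change 2.14 ± 0.26, limma adjusted p = 0.00661). Of 12 enzymes that process N-glycans, limma called 1 (unadjusted p under 0.05 for 1 toward excitatory and 3 toward inhibitory). The called gene was Mgat4c, at 78.7 and 89.04 TPM in excitatory libraries, against 127 and 142 TPM in inhibitory ones (-0.67 ± 0.12, limma adjusted p = 0.0187). Among carriers of polysialic acid limma called 0 of 3 (1 in each direction at an unadjusted p under 0.05), and among sialic acid-binding lectins 0 of 3 tested (0 in each direction at an unadjusted p under 0.05).

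**Figure D4:**
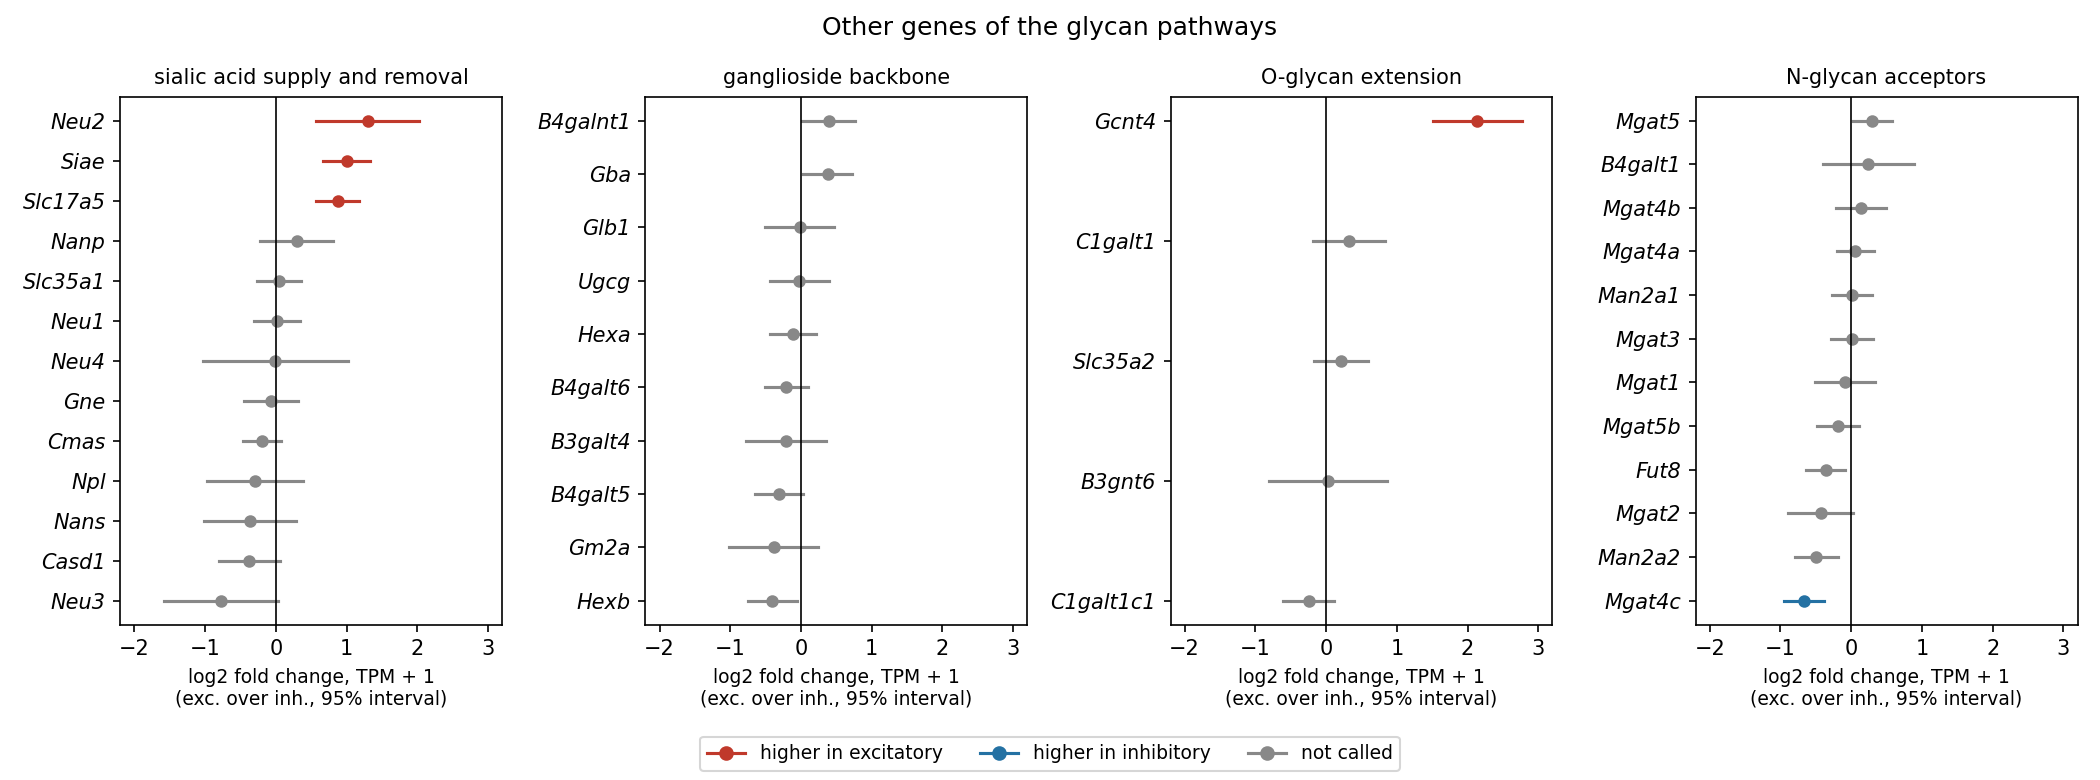
Log2 fold change of TPM + 1, excitatory over inhibitory, with 95% intervals from limma, for the tested genes of 4 lists of glycan pathway genes. Called genes are Siae, Slc17a5, Neu2 and Gcnt4 toward excitatory nuclei and Mgat4c toward inhibitory nuclei, and the genes in grey were not called.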

How the data were processed

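Ribosomal RNA was removed from the RNA of sorted nuclei and strand-keeping libraries were built, per the labels' protocols. The authors deposited 1 table of TPM values with 1 column per library, each summing to between 999833 and 999891. The submitters' processing notes name StringTie 2.2.1, Bowtie2 2.3.5, HISAT2 2.2.1, fastp 0.23.4 and the build mm10. The order of these steps, the release of the gene annotation and strand use in counting were not given in the sources used here. TPM keeps no depth, so counting intervals are left out and a 0 is described as listed at 0.

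Sample titles gave the groups and replicate numbers, and columns were matched by the names in the sample descriptions. Values were taken as log2(TPM + 1) for 26055 genes that reached 1 TPM in 2 or more libraries. The contrast was excitatory over inhibitory, with limma 3.58.1 (R 4.3.3, moderated test with a variance trend, two-sided, Benjamini-Hochberg adjustment over all genes tested, threshold 0.05). The ± of a log2 fold change is its standard error with n = 2 libraries in each group. The scale understates the change of low genes. A fold is a ratio of mean TPM values. The fit was tested on simulated data. Positions and overlaps came from GENCODE M21, whose identifiers matched all 40 entries. Members and lists were chosen with earlier results of these data known. Values per library are given for members that were called, that averaged at least 10 TPM or whose groups did not overlap with a fold of at least 2. Other named genes come from the lists, at most 4 called genes a list. The alternatives were a pseudocount of 0.1, no filter, a filter of at least 5 TPM, median-ratio scaling, quantile normalization, no variance trend, the replicate number as a block, and each library left out. Python 3.11.15 and matplotlib 3.10.9 made the figures.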

Additional observations from a re-analysis of the deposited data

How the results depend on the processing

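Without the filter on low values, 4 members were called toward excitatory and 4 toward inhibitory nuclei, and with no trend in the variance prior 4 were called higher in excitatory nuclei. The cause was not tested. With 1 library left out, 1 residual degree of freedom remained, and the 15 called members kept their sign. The lone library is then assumed to vary like the other group. The counts were within 1.5 times their values under the other alternatives that kept every library. Among uncalled members near 0, the log2 fold change changed sign with median-ratio scaling for Galnt2 (0.0353), St3gal2 (0.0052) and St6galnac6 (0.0558), and with quantile normalization for St6gal1 (0.0122) and St6galnac6 (0.0316). With 1 library left out it ranged across 0 for St3gal2 (-0.156 to 0.0233), St6galnac6 (-0.252 to 0.221), Galnt2 (-0.0996 to 0.0257), Galnt4 (-0.292 to 0.0209) and Galnt6 (-0.198 to 0.518). Over the 7 alternatives with all libraries, 219 of 246 values of single members kept direction and side of the threshold, 15 lost a call and 7 gained one.

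With the replicate number as a block, 8 members were called toward excitatory and 8 toward inhibitory nuclei, with St8sia5 added (adjusted p = 0.0314). Over all genes the block gave 1946 calls toward excitatory and 2382 toward inhibitory nuclei, against 1414 and 1725 without it. Deviations of same-numbered libraries correlated at 0.10 across genes. Summed astrocyte, oligodendrocyte, oligodendrocyte precursor and microglia markers were higher in replicate 1 than in replicate 2 of both populations, and endothelial ones were lower. The numbers are not shown to pair the samples, and pairing was not tested. Depth is unknown, and 2 libraries a group limit the precision of every value.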
